A study of Mus musculus with 55 samples.

Results

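Carboxylesterases of the Ces2 and Ces3 subfamilies were examined in the livers of male mice of the Collaborative Cross (CC), a panel of recombinant inbred lines bred from genetically diverse founder strains. The set was taken by gene symbol and holds 7 genes, Ces2a, Ces2c, Ces2e, Ces2g, Ces2h, Ces3a and Ces3b, of 21 annotated Ces genes and 37620 genes in all. RNA sequencing covered 55 naive, untreated mice of 29 lines, of which 8 lines had 1 mouse, 16 had 2 and 5 had 3, and the mice were between 8 and 11.9 weeks old and weighed between 12.8 and 38 g. Each library held between 20.5 and 34.0 M assigned fragments. No control group exists, and the comparison is among the lines.

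Carboxylesterases are enzymes of the endoplasmic reticulum that split ester and amide bonds. In liver they hydrolyse lipids and many drugs, and the conversion of the prodrug irinotecan into its active form is a well-known example. All share a catalytic serine that sits in a short glycine-rich stretch of the protein.

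The genes lie head to tail on the plus strand of chromosome 8 within 359.9 kb (mm9, chr8:107257903-107617829). Their order is Ces2a (start 107257903, end 107265530), Ces2c (107370968 to 107378383), Ces2e (107450160 to 107458572), Ces2g (107485618 to 107493437), Ces2h (107538350 to 107544310), Ces3a (107572499 to 107582314) and Ces3b (107607653 to 107617829), and all are annotated as protein coding. The stretch of coding sequence around the codon of the catalytic serine is shown for each member because it is where the relatedness of the genes is easiest to see. It comes from the reference transcripts on the same build, reads 5′ to 3′, and carries in capitals the 5 codons of the motif glycine, any residue, serine, any residue, glycine.
Ces2a: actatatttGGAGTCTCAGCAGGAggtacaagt
Ces2c: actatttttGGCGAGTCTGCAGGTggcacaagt
Ces2e: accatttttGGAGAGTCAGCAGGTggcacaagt
Ces2g: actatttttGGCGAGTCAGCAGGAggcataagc
Ces2h: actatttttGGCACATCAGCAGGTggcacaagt
Ces3a: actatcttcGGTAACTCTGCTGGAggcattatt
Ces3b: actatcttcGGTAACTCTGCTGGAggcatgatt
Each coding sequence held the motif 1 time, and the 15 capital bases were identical between Ces3a and Ces3b. Over aligned coding bases, Ces3a and Ces3b were 95.3% identical, the Ces2 members were between 77.8% (Ces2a and Ces2h) and 85.8% (Ces2c and Ces2g) identical with each other, and a Ces2 gene and a Ces3 gene were between 63.5% and 65.9% identical. The annotated Ces2h coding sequence does not begin with a start codon and is the shortest of the set at 1605 bases.

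Relatedness bears on how fragments are assigned. Of the distinct 50-base words in its coding transcripts, Ces2c shared 69.0% with other Ces genes, mostly the pseudogene Ces2d-ps (67.5%), while Ces3a shared 30.1% and Ces3b 25.2% with each other. The remaining members shared between 0.257% (Ces2h) and 3.38% (Ces2g). The levels of Ces2c, and the split between Ces3a and Ces3b, therefore rest more on the sharing of fragments by the quantification than those of the other members. Ces2d-ps itself was measured between 0 and 1.99 FPKM.

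Before the results, 2 lines need a remark. Line mates were compared by the rank correlation of expression over all traits, and 42 of the 47 mice with a line mate were nearest to one. Mouse 1 of IL-1052 was nearest to mouse 1 of IL-2750 (rho 0.972) and mouse 2 of IL-1052 to mouse 2 of IL-2750 (rho 0.955), in both directions. Each of these 4 mice was thus nearest to a mouse of the other label. Mouse 3 of IL-2750 was nearest to mouse 1 of IL-2750 (rho 0.968). Whether any of these labels is wrong was not tested. The remaining exception was mouse 2 of IL-2146, which was nearer to the mouse of IL-1141 (rho 0.960) than to its line mate (rho 0.956). The intraclass correlation of Ces2h and the range of the within-line correlations are given with and without IL-1052 and IL-2750. Other values include these lines unless stated. Hepatocyte markers were high in every mouse (Alb between 8656 and 50167 FPKM). In whole liver, fewer cells of a type and less RNA per cell cannot be told apart.

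The 7 genes spanned a wide range of levels. In FPKM, fragments scaled for transcript length and depth, the mean over line means ± SD (n = 29 lines) was 967 ± 138 for Ces3a, 239.8 ± 58.6 for Ces3b, 152 ± 45.4 for Ces2a, 77.8 ± 25.0 for Ces2e, 28.2 ± 17.2 for Ces2c, 15.3 ± 3.13 for Ces2g and 10.6 ± 17.4 for Ces2h. Ces3a was above every other member in all 55 mice. Ces3b exceeded Ces2a in 52 mice, Ces2a exceeded Ces2e in 54, Ces2e exceeded Ces2c in 53 and Ces2c exceeded Ces2g in 40. Ces3a and Ces3b together made up between 72.7% and 88.4% of the summed FPKM of the set.

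**Figure D1:**
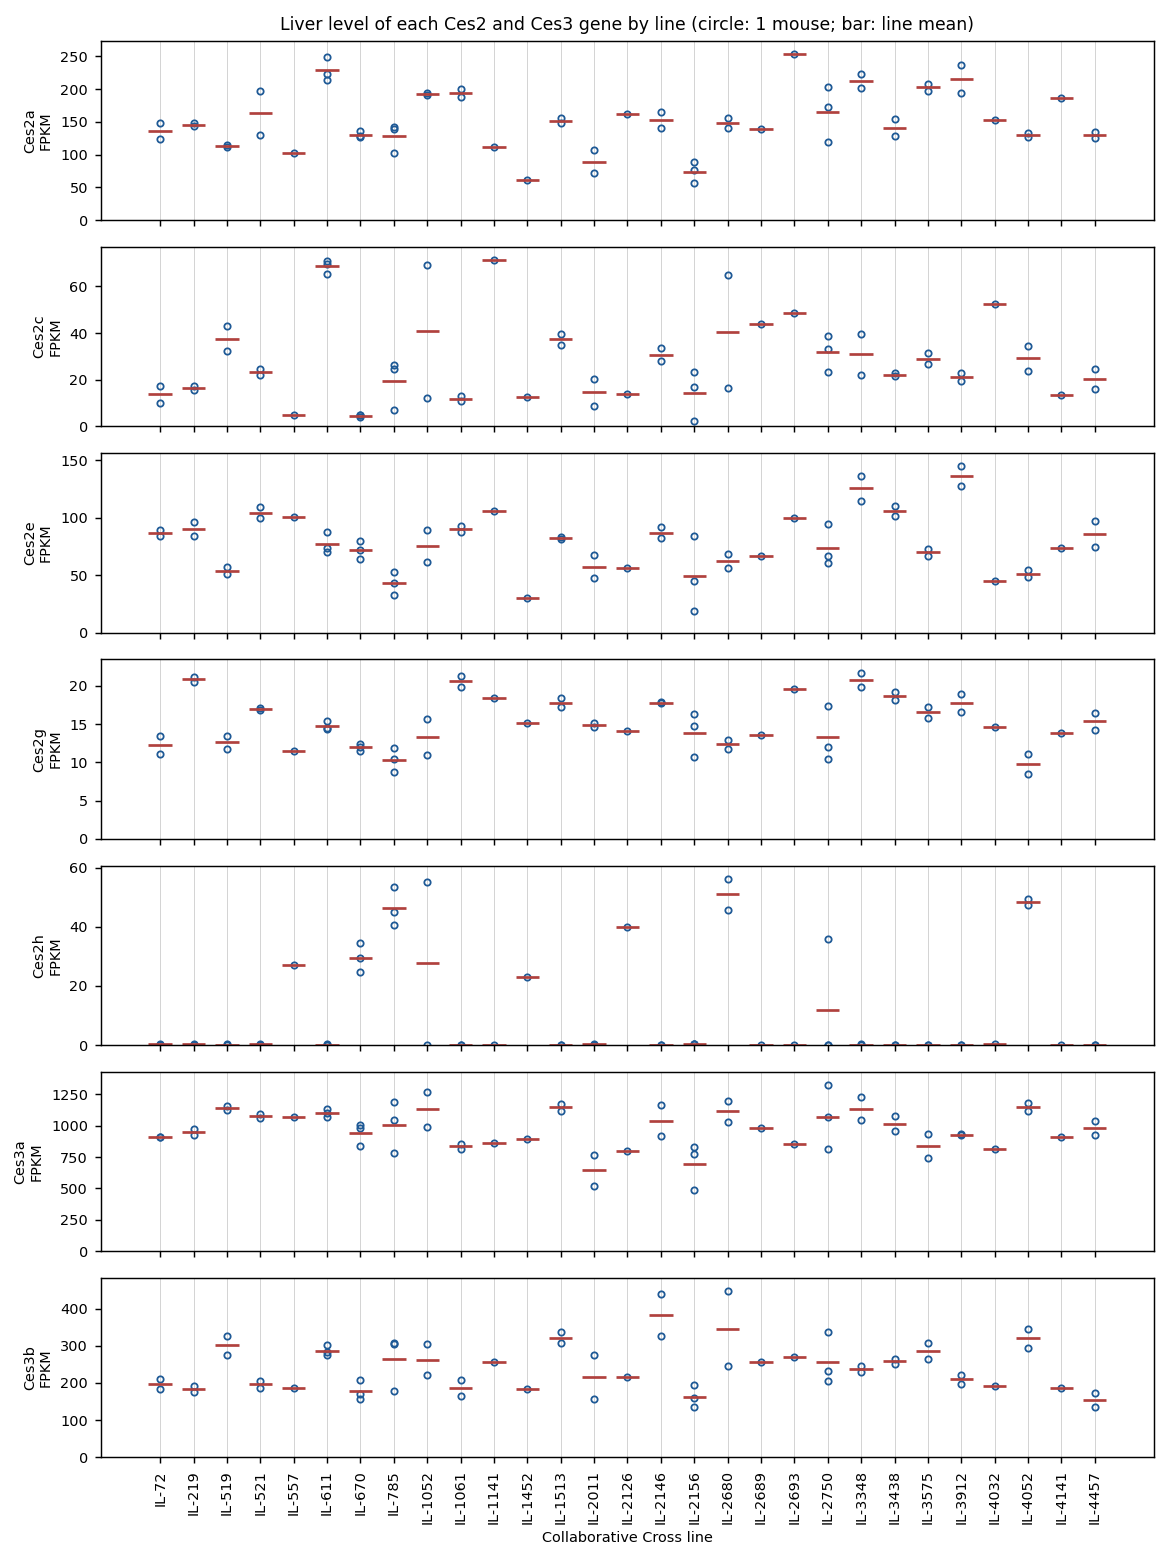
FPKM (vertical axis, linear from 0) of each of the 7 genes in each CC line (horizontal axis), with 1 circle per mouse and a bar at the line mean. Ces2h lies near 0 in most lines and above 23 FPKM in the others, while Ces3a varies least in relation to its mean.

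Every member differed among lines by edgeR's quasi-likelihood test, 7 of 7, but so did 88.5% of the 15285 genes tested, so the calls do not set the members apart. The adjusted p-values were 1.66e-08 for Ces2h, 2.84e-07 for Ces2a, 0.000144 for Ces2g, 0.000378 for Ces3b, 0.00228 for Ces2c, 0.00445 for Ces2e and 0.0111 for Ces3a. The test sets the differences among lines against the spread between mice of a line only. The labels do not say whether mice of a line shared a litter or cage.

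The share of the variance that lay between lines, the intraclass correlation of rank-based scores, ordered the members differently. It was 0.762 ± 0.108 (jackknife SE over lines) for Ces2a, 0.731 ± 0.120 for Ces2e, 0.680 ± 0.127 for Ces2g, 0.563 ± 0.204 for Ces2h, 0.536 ± 0.211 for Ces2c, 0.443 ± 0.152 for Ces3b and 0.328 ± 0.208 for Ces3a. The median over 5949 expression traits was 0.592. The members Ces2a, Ces2e and Ces2g, were above that median and the other 4 below it. Without IL-1052 and IL-2750 the value of Ces2h was 0.788.

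The line means of Ces2a started at 61.0 FPKM, in the 1 mouse of IL-1452, and reached 254 FPKM in the 1 mouse of IL-2693. Among the lines with several mice, the 3 mice of IL-2156 had 77.0, 88.9 and 56.5 FPKM and the 3 mice of IL-611 had 249, 223 and 214 FPKM. These were the lowest and highest of the lines with several mice, picked by their values, and their mice did not overlap. Of the 28 steps between lines next to each other in the order, 2 exceeded the pooled SD within lines of 20.8 FPKM, so most neighbours in the order did not differ beyond their spread.

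As a ratio of the highest to the lowest mouse, Ces2c varied most of the members detected in every mouse, from 2.41 to 71.2 FPKM, a ratio of 29.5. The line means ran from 4.56 ± 0.457 FPKM (SD, n = 3) in IL-670 to 71.2 FPKM in the 1 mouse of IL-1141, a ratio of 15.6. The 3 mice of IL-611 were close together at 65.4, 69.4 and 70.9 FPKM. The 2 mice of IL-2680, in contrast, had 16.5 and 64.7 FPKM, and those of IL-1052 had 69.3 and 12.2 FPKM. The pooled SD within lines was 12.1 FPKM, and 1 of 28 steps in the order exceeded it.

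For Ces2e the mouse of IL-1452 gave the lowest line mean, 30.4 FPKM, and the 2 mice of IL-3912 gave the highest, with 127 and 145 FPKM. The 3 mice of IL-2156 covered 84.2, 45.4 and 19.1 FPKM. The pooled SD within lines was 13.7 FPKM, and 1 of 28 steps in the order exceeded it. On the log2(FPKM + 1) scale the intraclass correlation of Ces2e was 0.574 in place of 0.731.

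Ces2g varied little, from 8.52 to 21.7 FPKM over all mice. Its line means ran from 9.82 ± 1.83 FPKM (SD, n = 2) in IL-4052 to 20.8 ± 0.467 FPKM (SD, n = 2) in IL-219. No step between neighbours in the order of lines exceeded the pooled SD within lines of 1.75 FPKM, while the line means as a whole had an SD of 3.13 FPKM.

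Ces2h was either near 0 or clearly expressed, with nothing between. In 40 mice it lay between 0 and 0.39 FPKM, with at most 15 counts, and in 15 mice between 23.2 and 56.3 FPKM, with between 904 and 2451 counts. The gap was seen after looking at the values. Of the mice of 7 lines, every one was above it: IL-1452 (1 mouse, 23.2 FPKM), IL-557 (1 mouse, 27.2 FPKM), IL-2126 (1 mouse, 40.1 FPKM), IL-670 (24.9, 29.5 and 34.5 FPKM), IL-785 (45.1, 53.5 and 40.6 FPKM), IL-4052 (47.5 and 49.5 FPKM) and IL-2680 (56.3 and 45.9 FPKM). All mice of 20 lines were below it, and the mouse of IL-4141 had 0 counts, which allows up to 0.0763 FPKM at 3 counts. This limit covers counting error only. Only IL-1052 and IL-2750, the lines with mice nearest to a mouse of the other label, had mice on both sides. Mouse 2 of IL-1052 had 55.1 FPKM against 0.12 FPKM in mouse 1, and mouse 2 of IL-2750 had 35.8 FPKM against 0.12 and 0.02 FPKM in the others.

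Ces3a, the most abundant member, was the steadiest, with a coefficient of variation of the line means of 14.3%. Its lowest line mean was 645 ± 175 FPKM (SD, n = 2) in IL-2011 and its highest 1151 ± 46.3 FPKM (SD, n = 2) in IL-4052, a ratio of 1.79. The pooled SD within lines of 135 FPKM was close to the SD of the line means of 138 FPKM, and no step in the order exceeded it. Ces3b ranged from 155 ± 27.7 FPKM (SD, n = 2) in IL-4457 to 383 ± 78.8 FPKM (SD, n = 2) in IL-2146, and again no step exceeded its pooled SD within lines of 51.1 FPKM.

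The isoforms of the genes were compared through their isoform ratio (IsoPct), the percent of a gene's expression assigned to 1 transcript. Of 19 annotated isoforms, 10 could be tested and 9 of these differed among lines by limma's moderated F test, where 27.5% of 21415 isoforms passed. Isoforms of 1 gene sum to 100%, so their tests are not independent. On untransformed shares 6 of the 10 passed, both Ces2e isoforms failed without either mouse of IL-2146, and ENSMUST00000074403 of Ces3b failed in 20 of the 47 fits that left out 1 mouse. Ces2g and Ces2h have a single annotated isoform. Of the 4 annotated isoforms of Ces2c, ENSMUST00000055052 had at least 99.5% in every mouse.

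For Ces3a the pair of isoforms differs by 1 coding exon of 141 bases, exon 8 of 13 in ENSMUST00000093222 (mm9, chr8:107577444-107577584), which ENSMUST00000093223 lacks. The length is a multiple of 3. The exon is printed with its bases in capitals and the 10 flanking intron bases on each side in lower case, since it is the sequence that the share below counts.
Ces3a exon: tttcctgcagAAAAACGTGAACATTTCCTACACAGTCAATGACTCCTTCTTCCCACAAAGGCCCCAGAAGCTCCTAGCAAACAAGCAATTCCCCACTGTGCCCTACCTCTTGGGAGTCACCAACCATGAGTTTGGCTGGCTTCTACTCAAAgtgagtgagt
The isoform without the exon had a mean share of 11.4% of Ces3a, and its adjusted p among lines by limma was 0.00363. In 14 mice its share was between 0 and 0.38%, in 40 mice between 12.7% and 19.8%, and in the mouse of IL-1452 it was 6.83%. Line means ran from 0.115% ± 0.0919 (SD, n = 2) in IL-4052 to 19.8% ± 0.00707 (SD, n = 2) in IL-1061.

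The Ces3a share and the level of Ces2h, its neighbour on the chromosome, divided the mice in the same way. The 14 mice with a share of at most 0.38% were all among the 15 with Ces2h above the gap, and none of the 40 mice with a share of 12.7% or more was. The mouse of IL-1452 was intermediate in the share and had the lowest Ces2h level of those above the gap. The 2 lines with mice nearest to a mouse of the other label had mice on both sides in both measures. Mouse 2 of IL-1052 had a share of 0.19% and mouse 1 had 17.6%. Mouse 2 of IL-2750 had 0.37% against 15.3% and 13.2% in the others. These mice are already counted among the 14 and the 40. No test was made, because mice were sorted here by what was measured, and genotypes were not used here. The total level of Ces3a did not divide in that way, since IL-2126 had 799 FPKM and IL-4052 had 1184 and 1118 FPKM.

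**Figure D2:**
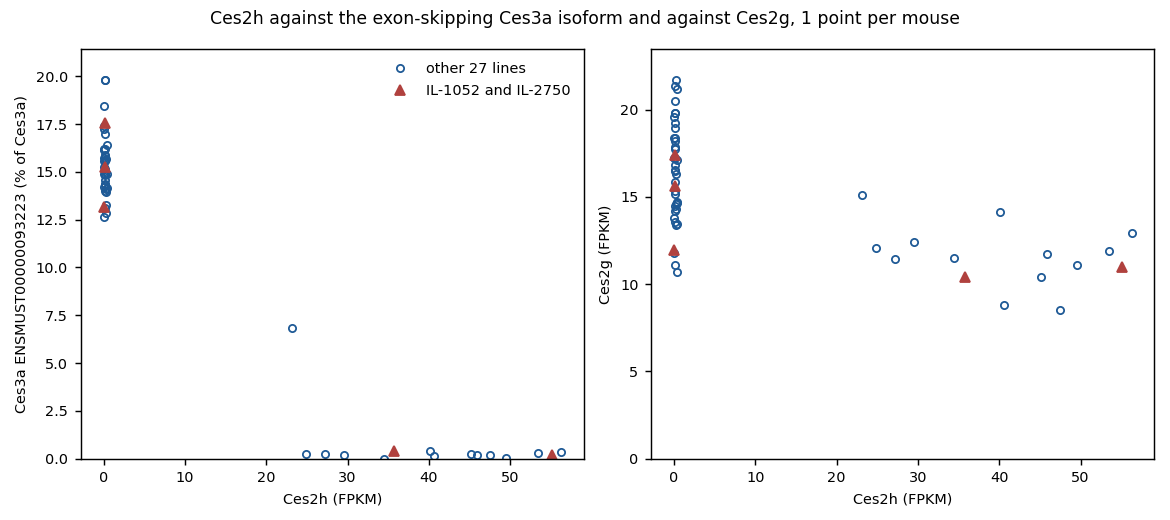
Share of the exon-skipping Ces3a isoform (left, percent of Ces3a) and level of Ces2g (right, FPKM) against the level of Ces2h (FPKM), 1 point per mouse, with triangles for IL-1052 and IL-2750. Mice with Ces2h near 0 have shares of 12.7% or more, and the others at most 0.38% except the mouse of IL-1452 at 6.83%. Across the 29 line means of log2(FPKM + 1), r of Ces2g with Ces2h was -0.662.

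For Ces2a, ENSMUST00000164182 lacks the 99-base coding exon at chr8:107262554-107262652 (mm9) and also has a shorter first and last exon. Its mean share was 4.93%, from 1.48% ± 2.09 (SD, n = 2) in IL-3912 to 9.74% ± 0.710 (SD, n = 3) in IL-670, with an adjusted p of 0.00997 by limma. The main isoform, ENSMUST00000034346, had 94.4% (adjusted p = 0.0139, and 0.0532 on untransformed shares). In Ces2e the isoforms, of which ENSMUST00000109410 had 94.5% on average, share their coding length of 1677 bases and differ at the 3′ end. The one with the long last exon, ENSMUST00000034355, had 16.7% in the mouse of IL-557 and 13.3%, 11.9% and 11.1% in the mice of IL-670, against at most 9.97% in every other mouse. Its adjusted p by limma was 0.0134 among the lines with several mice, IL-557 not included, and 0.054 without line IL-2146.

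Lines IL-557 and IL-670 were alike in some other measures and apart in others. They had the lowest line means of Ces2c, 4.88 and 4.56 FPKM, and both were above the gap for Ces2h. Ces2b, which lies between Ces2a and Ces2c, had 61.8 FPKM in the mouse of IL-557 and 43.9, 39.7 and 47.4 FPKM in the mice of IL-670, while its median over all mice was 1.2 FPKM. In contrast, ENSMUST00000164182 of Ces2a had 2.69% in IL-557 and 9.74% in IL-670, ENSMUST00000166357 of Ces3b had 50.5% and 65.9%, and the level of Ces2e was 100.7 and 72.0 FPKM. These 2 lines were singled out after their values were seen.

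Ces3b divided its expression most widely. ENSMUST00000166357 and ENSMUST00000093221, which differ in the length of the last exon, had mean shares of 58.4% and 25.1%. ENSMUST00000173838, a 4-exon transcript with no annotated coding sequence, had 10.2%, from 2.44% in the mouse of IL-4141 to 18.8% ± 1.45 (SD, n = 2) in IL-2011 (adjusted p = 0.00339). ENSMUST00000074403, which lacks a coding exon of 150 bases, had 5.04%, and ENSMUST00000173088, a 6-exon transcript that was not tested, had 1.37%. The adjusted p-values by limma were 0.0306 for ENSMUST00000093221, 0.0459 for ENSMUST00000074403 and 0.0594 for ENSMUST00000166357, and those of the first 2 did not hold on untransformed shares (0.126 and 0.213).

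**Figure D3:**
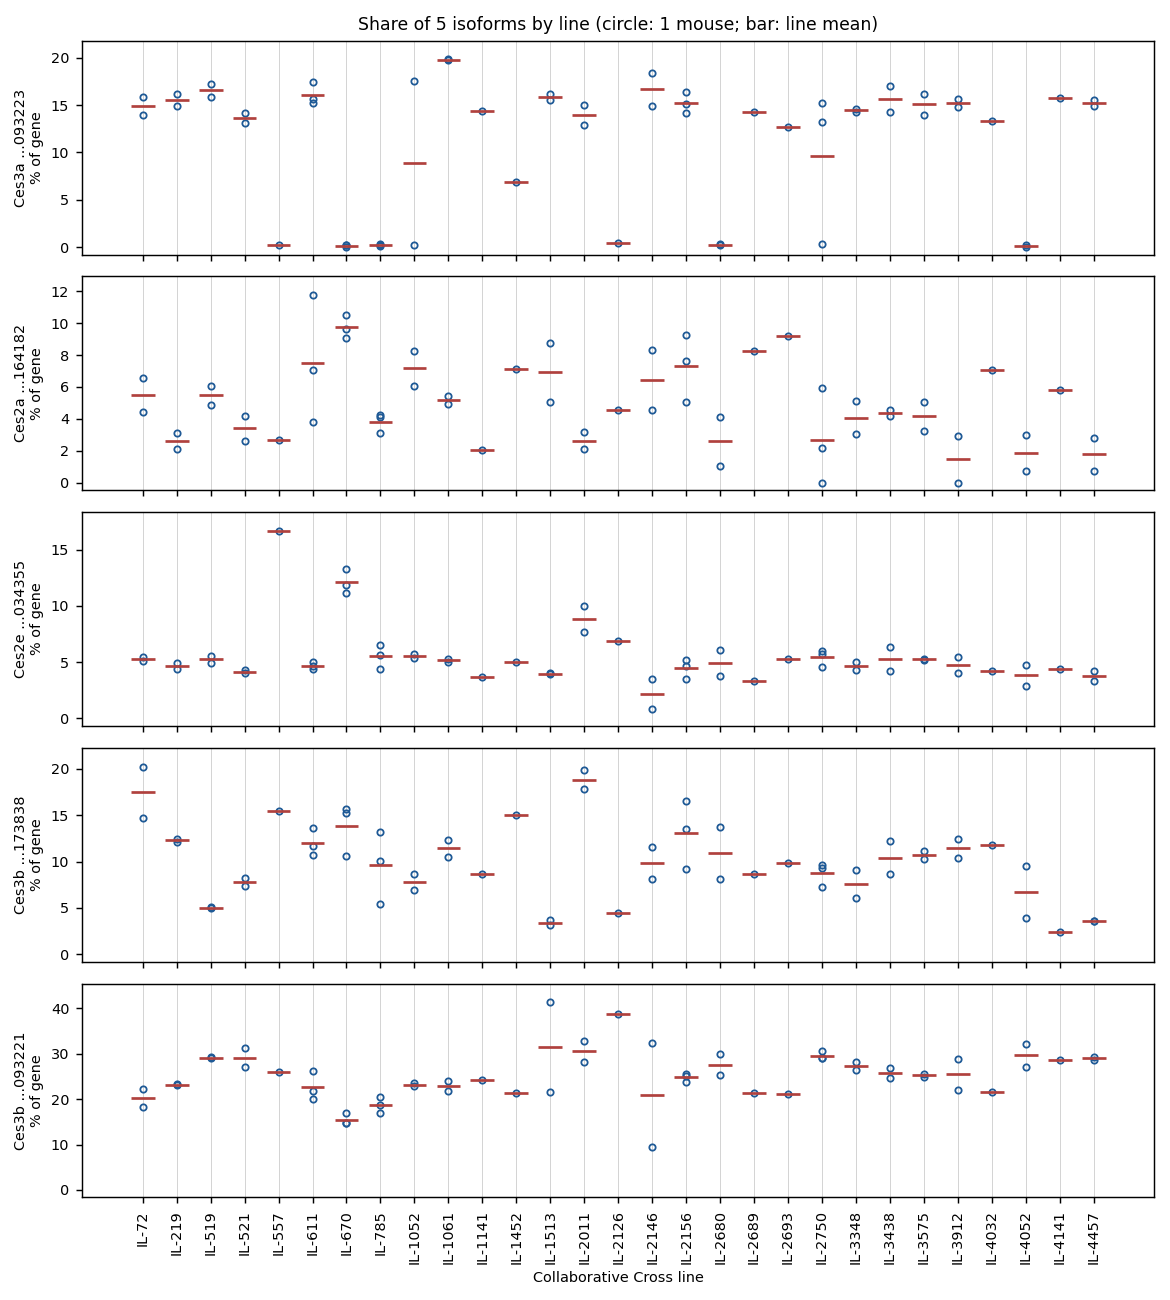
Share of 5 isoforms (vertical axis, percent of the gene) in each CC line (horizontal axis), with 1 circle per mouse and a bar at the line mean. The Ces3a isoform without exon 8 falls to near 0 in IL-557, IL-670, IL-785, IL-2126, IL-2680 and IL-4052, and the Ces2e isoform with the long last exon is highest in IL-557 and IL-670.

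Levels of the members were compared with each other across the 29 line means of log2(FPKM + 1). Lines of the panel share founder haplotypes and the members share a chromosome region, so the coefficients are descriptions. Ces2h was left out of the pairs counted here, since its lines fall into separate clusters that a pooled coefficient mixes. Its r ran from -0.662 ± 0.104 (jackknife SE, rho = -0.557) with Ces2g to 0.195 ± 0.168 with Ces3a. By rho with Ces2g it ranked 15281 of 15284 genes. Of the remaining 15 pairs, 13 had a Pearson r above 0. The closest was Ces2c with Ces3b (r = 0.640 ± 0.0864, jackknife SE, and Spearman rho = 0.701), and each was the gene most like the other in rank among all other genes tested. Ces2a and Ces2e followed with r = 0.593 ± 0.171 and rho = 0.427, then Ces2e and Ces2g with r = 0.563 ± 0.139 and rho = 0.60, and Ces3a and Ces3b with r = 0.50 ± 0.129 and rho = 0.509.

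Leaving out the 2 lines farthest from the median of the first gene left r at 0.615 for Ces2c and Ces3b, 0.641 for Ces2e and Ces2g and 0.462 for Ces3a and Ces3b, but lowered it to 0.349 for Ces2a and Ces2e, which thus rested partly on IL-2156 and IL-1452. Ces2g had r = -0.161 with Ces3a and -0.0436 with Ces3b. Ces2e and Ces3b were at 0.0501.

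In 14 of the 15 pairs r was higher between mice of the same line than between line means, the exception being Ces2a and Ces2e (0.516 against 0.593). Over deviations from the line mean in 47 mice, r lay between 0.401 (Ces2e and Ces3b) and 0.786 (Ces3a and Ces3b), with a median of 0.614 against 0.305 for the line means. Without IL-1052 and IL-2750, in 42 mice, r lay between 0.303 (Ces2e and Ces3b) and 0.794 (Ces2c and Ces3a), with a median of 0.645. Ces2a and Ces2c then rose from 0.478 to 0.692, and Ces2g and Ces3b went from 0.562 to 0.410. Ces2g and Ces2h, not among the 15 pairs, went from -0.510 to 0.220. Within the lines, mouse 3 of IL-2156 was the lowest of its line for all of Ces2a, Ces2c, Ces2e, Ces2g, Ces3a and Ces3b, and leaving out IL-2156 lowered Ces2c and Ces2e from 0.718 to 0.552. The part of RNA quality or cell content in these deviations was not tested. The summed hepatocyte markers had a within-line r of 0.559 with Ces2e, 0.456 with Ces2g, 0.330 with Ces3a, 0.149 with Ces2a, 0.0448 with Ces2c and -0.0337 with Ces3b.

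**Figure D4:**
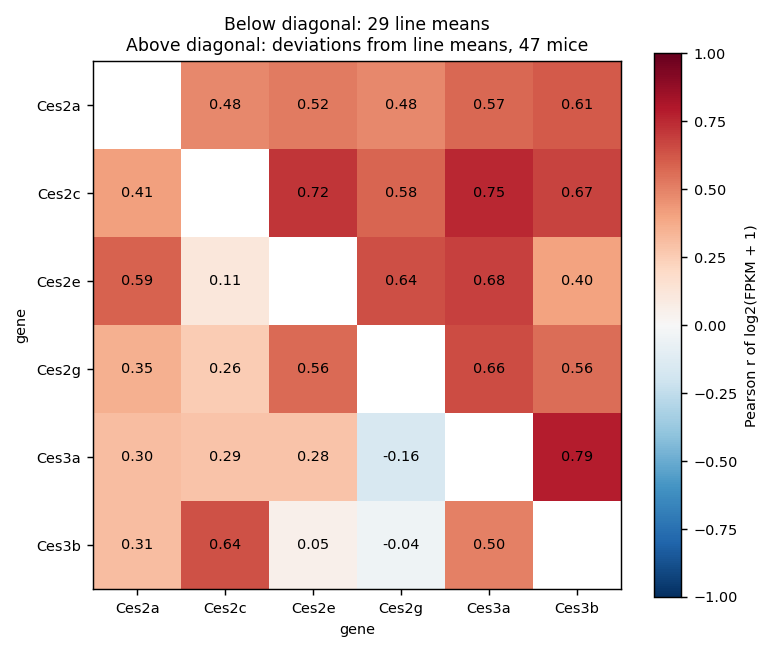
Pearson r of log2(FPKM + 1) between 6 members, with Ces2h left out. Below the diagonal r is across 29 line means and above it across deviations from the line means in 47 mice, where every coefficient is at least 0.401.

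Depth moved with the Ces3 genes across lines, with Spearman rho of 0.505 for Ces3a and 0.424 for Ces3b, while within lines r was -0.162 and -0.275. Its part in the line differences was not tested. Of the 5 intestinal epithelium markers, Fabp2 lay between 32 and 165 FPKM and Lgals4 between 0.15 and 10.2 FPKM, while Vil1 reached at most 0.8 and Cdx2 at most 0.02 FPKM and Cdx1 was at 0 in every mouse. Their sum, between 34.0 and 168 FPKM, was mostly Fabp2 (medians of 76.6 and 73 FPKM) and had rho of 0.420 with Ces2e across lines. The erythroid markers summed to between 198 and 2756 FPKM, with rho between -0.379 (Ces2a) and 0.106 (Ces2e). For the summed bile duct markers, at most 8.39 FPKM, rho lay between -0.552 (Ces2h) and 0.479 (Ces2g). The part of these cells in the line differences was not tested. The summed exocrine pancreas markers reached 233 FPKM in 1 mouse at a median of 0.41, and had rho between -0.0960 and 0.0611 with the members across lines.

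By the highest Spearman rho over the 29 line means, the genes outside the family most like each member were Dtnbp1 (0.736), Car3, a carbonic anhydrase (0.697), and Sin3b (0.694) for Ces2a. For Ces2c they were Clpb, a mitochondrial disaggregase (0.687), Cox18 (0.667) and Lysmd1 (0.662). For Ces2e they were D130043K22Rik (0.779), Mpp1 (0.714) and Ly6a (0.702), and for Ces2g Prune (0.727), Trap1, a mitochondrial chaperone (0.668), and Cstf1 (0.659). Ces3a was most like Ccdc164 (0.655), 4833422F24Rik (0.593) and Hprt, a purine salvage enzyme (0.588), of which the first 2 stayed below 1 FPKM. For Ces2h, whose lines fall into clusters, the highest values were those of 1600002H07Rik (0.610), N4bp2l1 (0.593) and Scoc (0.583). Ces3b was most like the pseudogene Mup-ps9 (0.683), which had a median of 0 and a maximum of 3.38 FPKM, Exosc5 (0.621) and Aadat (0.618). No gene outside the family passed 0.8 for any member. These are the highest values among 15284 genes ranked for each member over only 29 lines. Whether they exceed what such a search gives by itself was not tested.

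Other genes of the same biology also differed among lines, again at about the rate of all genes. Among the other carboxylesterases 9 of 9 tested passed by edgeR, and the median intraclass correlation of the 7 kept as traits was 0.765. Ces1b (0.873) and Ces1g (0.864) had the highest. Of the ester and amide hydrolases and irinotecan genes, 14 of 14 passed with a median of 0.652, led by Ugt1a10, a glucuronosyltransferase (0.922), and Ephx1, microsomal epoxide hydrolase (0.748). Of the receptors and factors that regulate such genes, 9 of 10 passed with a median of 0.510, led by Ahr (0.661) and Nr1i2, the pregnane X receptor (0.584), and the glucocorticoid receptor Nr3c1 did not (adjusted p = 0.0847). All 6 receptor target genes passed with a median of 0.723, led by Cyp3a11 (0.803) and Cyp2c55 (0.784). Of 54 genes within 500 kb of the set, 34 were tested and 31 passed, with a median of 0.615 over 10 traits, led by Tmem208 (0.724) and Gm8841 (0.682).

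No member passed the test for a slope on body weight or age. Across line means, limma called 0 of 11284 genes for weight, with 833 (7.38%) at an unadjusted p under 0.05, and 0 for age, with 621 (5.5%) at that level. The largest slope was that of Ces2h on age, 1.07 ± 0.38 (SE) on the log2(FPKM + 1) scale per week, with an adjusted p of 0.882.

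Promoter windows of 300 bases were at hand for 6 members (RefSeq, GRCm38.p6), all but Ces3a. CCAAT on either strand was found in those of Ces2a, Ces2c, Ces2g, Ces2h and Ces3b and in 37.4% of 32544 windows. TATAAA was found only in that of Ces3b (13.6% of windows), and the nuclear receptor motif AGGTCA in those of Ces2a and Ces2h (16.2%). The spaced pairs of that motif in the same direction with 1, 3 or 4 bases between (DR1, DR3 and DR4) and the HNF1 motif were not matched in these windows. They were found in only 0.0399% (DR1), 0.00615% (DR3), 0.0154% (DR4) and 0.00922% (HNF1) of the 32544 windows. Their absence from 6 windows therefore says little about the members.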

How the data were processed

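RNA of 55 livers was measured, and the strain label placed each mouse in 1 of 29 lines. Read pairs, 50 bases per end, were mapped by the authors to mm9 with Bowtie and quantified with RSEM 1.2.18 (submitters' processing notes). The deposited expected counts are unnormalized fragment estimates, with fragments that match several genes shared out. In the deposited TPM and FPKM, length and depth had been divided out by RSEM. The deposited IsoPct gives each isoform as a percent of its gene.

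Expected counts were rounded and tested among the 21 lines with at least 2 mice (47 mice) with edgeR (TMM, filterByExpr, quasi-likelihood F test). Isoform ratios of genes reaching 2 FPKM with at least 12 levels were tested with limma on van der Waerden scores of values binned at the maximum divided by 200 (at least 0.5). Slopes on weight and age used limma on line means. Adjusted p-values are Benjamini-Hochberg over all features, with a threshold of 0.05. Correlations used a pseudocount of 1. The fits that left out 1 mouse kept the genes and trended dispersion of the full edgeR fit. In edgeR and limma alike they dropped a line left with 1 mouse, so for a line with 2 mice they left out the whole line. The fits were tested on simulated data.

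The members and gene lists were chosen with earlier results of these data known. The named genes are the members, the 3 genes outside the family most like each, the 2 genes of highest intraclass correlation per list, and isoforms with a mean share of at least 1%. Protein comparisons were not run, since no protein table was used here. No labels give sequencing batches. Alternatives included DESeq2, other scalings, filters and pseudocounts, and leaving out mice or lines.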

Additional observations from a re-analysis of the deposited data

How the results depend on the processing

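Each member passed the test among lines under every alternative that tested it, but the filter of at least 10 counts in every mouse left Ces2h untested. The count of genes called, 13523 in all, lay between 12792 and 13666 when 1 mouse was left out. Isoforms called numbered 5899, and between 4997 and 6250 with 1 mouse left out. Of the members' isoforms, on untransformed shares the adjusted p by limma was 0.0532 for ENSMUST00000034346 of Ces2a, 0.126 for ENSMUST00000093221 and 0.213 for ENSMUST00000074403 of Ces3b, and with at least 100 counts in every mouse it was 0.0494 for ENSMUST00000166357 of Ces3b. With 1 mouse left out it reached 0.054 for both isoforms of Ces2e (either mouse of IL-2146 left out, which dropped that line). It reached 0.0645 for ENSMUST00000093221 (not called without any 1 mouse of IL-670 or mouse 3 of IL-785) and 0.0935 for ENSMUST00000074403. For ENSMUST00000166357 it lay between 0.0327 and 0.221. The call of ENSMUST00000074403 was lost in 20 of the 47 fits, which hold the same fit 2 times for each line with 2 mice. The intraclass correlation was 0.574 for Ces2e on log2(FPKM + 1), and 0.788 for Ces2h without IL-1052 and IL-2750. In only the lines with at least 2 mice, r of the line means was 0.0723 for Ces2c and Ces2g, 0.626 for Ces2c and Ces3a, 0.739 for Ces2e and Ces2g and -0.137 for Ces2e and Ces3b. Without IL-1052 and IL-2750, an alternative chosen after seeing the data, the within-line r of Ces2a and Ces2c was 0.692. Weight and age gave 0 calls under every setting run. Slopes on weight changed sign without age as a term for Ces2c (-0.0018) and Ces2g (-0.00397), and with 1 line left out they lay between -0.01999 and 0.00138 for Ces2a, -0.00917 and 0.0253 for Ces2c and -0.00774 and 0.00596 for Ces2g. Slopes on age then lay between -0.0422 and 0.0108 for Ces2a and -0.0195 and 0.0685 for Ces3b. The cause of these changes was not tested. No paired analysis was made, since the labels pair no mice across lines. They give the mice no replicate numbers either, and the mouse numbers used here only tell line mates apart. Depth limits Ces2h below the gap, where no mouse had over 15 counts.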
